A study of Mus musculus with 16 samples.

Results

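The core circadian clock genes are described here by 10 members: the activators Arntl (the gene of BMAL1), Clock and Npas2, the repressors Per1, Per2, Per3 and Cry1, the nuclear receptors Nr1d1 and Nr1d2 (REV-ERBα and REV-ERBβ), and the output factor Dbp. They were taken by gene symbol from the deposited liver and fat tables, and each symbol had 1 identifier among the 22322 genes. Poly(A)-selected RNA was sequenced from diet-induced obese (DIO) mice that were injected into the peritoneum with halofuginone (100 μg/kg, 1 injection per 2 days, 8 weeks) or with vehicle at the same interval. Halofuginone inhibits prolyl-tRNA synthetase. Both arms carry the obese state: the vehicle samples are labelled HFD, and no lean or untreated group was analysed here. The 4 groups were liver with vehicle (n = 5), liver with halofuginone (n = 5), white adipose tissue with vehicle (n = 3) and white adipose tissue with halofuginone (n = 3). The labels give no strain, sex, age, fat depot, hour of collection, feeding state or time since the last injection. They do not say that each sample is a separate animal, so p-values measure the spread between these samples, which may in part be technical.

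The mammalian clock is a transcription loop. BMAL1 pairs with CLOCK or NPAS2 and activates the Per and Cry genes through a DNA element called the E-box, and PER and CRY proteins then repress that activation. In a second loop REV-ERB proteins repress Arntl through the RORE element, where ROR proteins activate it, and factors such as DBP act on the D-box. In liver and fat these transcripts rise and fall over the day, with Arntl and Npas2 at roughly the opposite phase of Dbp and Nr1d1, so that 1 level per animal depends on the hour at which the tissue was taken.

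The elements through which the members act on each other are shown as they stand at the members' own start sites. Promoter windows from RefSeq (GRCm38.p6, 250 bases before to 50 after a start) were matched by symbol for 9 of the 10 members, in 13 windows. These windows were searched on both strands for the E-box CACGTG, the D-box TTANNTAA, the RORE TAGGTCA and the cAMP response element TGACGTCA, none of which overlapped another in the members. Of the 9, 4 held at least 1 match. The stretches below run 5′ to 3′ on the gene's strand, with the matched element in capitals. The Arntl stretch is chr7:113207530-113207558 on the + strand, with the element from base 31 of the transcript. The Per1 stretch is chr11:69098758-69098813 on the + strand, 166 bases upstream of a start. The Cry1 stretch is chr10:85185084-85185139 on the - strand, 60 bases upstream, and the Per3 stretch is chr4:151044791-151044895 on the - strand, with 2 D-boxes 205 and 158 bases upstream.
Arntl, RORE: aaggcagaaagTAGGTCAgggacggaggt
Per1, E-box: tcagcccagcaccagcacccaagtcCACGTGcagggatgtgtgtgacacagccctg
Cry1, E-box: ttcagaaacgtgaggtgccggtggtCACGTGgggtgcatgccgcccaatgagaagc
Per3, D-box: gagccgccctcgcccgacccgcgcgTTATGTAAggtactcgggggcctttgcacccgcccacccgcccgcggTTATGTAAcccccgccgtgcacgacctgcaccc
Among all 32851 promoter windows of the table, 7.15% held the E-box, 6.0% the D-box, 2.61% the RORE and 1.79% the cAMP response element. A match is a description of the letters and does not show binding. Clock, Npas2, Nr1d1, Nr1d2 and Dbp had windows without these letters.

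The livers held 20309956 to 31980683 counts each, and the fat samples held 17070614 to 21387799. Hepatocyte markers marked the livers (8 genes, summed 51878 to 137077 CPM) and adipocyte markers the fat (8 genes, 12011 to 24685 CPM). CPM here are counts over library size, scaled within a tissue, so they are not compared between tissues. The livers numbered 1 and 2 of the halofuginone arm stood apart, and results are given with and without them. In halofuginone liver 1, Asns, a target of the amino acid response, reached 6.71 CPM against 55.5 to 127 in the other halofuginone livers and at most 1.35 with vehicle. Trib3, of the same response, was at 5.96 CPM there against 210 to 357 in the other halofuginone livers and at most 5.73 with vehicle. These 2 genes were chosen after their values had been seen. Halofuginone liver 2 stood apart in the clock genes themselves, as given below.

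In liver, none of the members passed the test for a halofuginone effect, while the libraries within the halofuginone arm differed from each other by much more than the vehicle libraries did for Arntl, Per3 and Dbp. Of the 10 members, 9 had enough counts to be tested and Npas2 did not. In edgeR (quasi-likelihood fit, Benjamini-Hochberg adjusted), 0 of the 9 were called at an adjusted p under 0.05, where 23.2% of the 12311 genes tested were called. At an unadjusted p under 0.05 there were 2 of the 9, Per2 and Nr1d1, against 39.1% of all genes, and DESeq2 called 0. The arms overlapped in every one of the 10 members, whereas they did not overlap in 11.7% of the genes tested. The median log2 fold change of the 9 was 0.17, and that of all genes was 0.02.

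**Figure D1:**
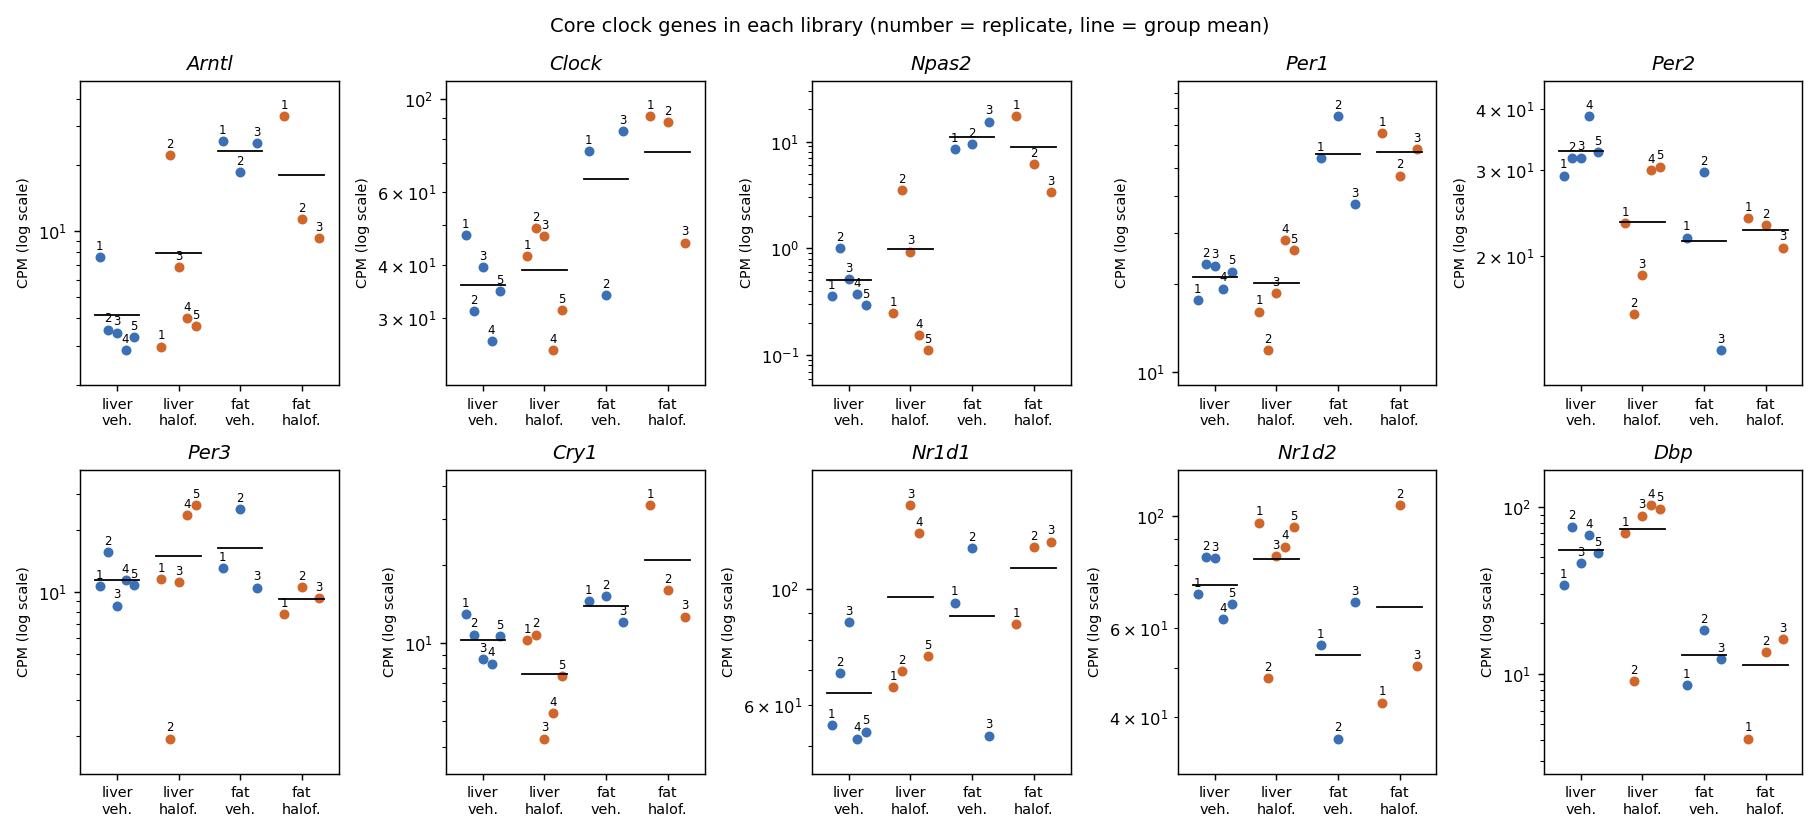
CPM (log scale, scaled within each tissue) of each of the 10 clock genes in each library, with vehicle in blue and halofuginone in orange. Numbers are replicates and lines are group means. In liver, halofuginone replicate 2 is the highest for Arntl (22.1 CPM) and Npas2 (3.50 CPM) and the lowest for Per3, Nr1d2 and Dbp (9.02 CPM). The arms overlap in every panel.

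Among the activators, Arntl was at 7.60, 3.56, 3.45, 2.88 and 3.28 CPM in vehicle livers 1 to 5. With halofuginone it was at 2.98, 22.1, 6.83, 4.01 and 3.69 CPM in livers 1 to 5. A single halofuginone liver, the second, lay above every vehicle liver, and the other 4 fell within the vehicle range. On the log2 scale the difference was 0.94 (SE 0.54, edgeR adjusted p 0.216), and without halofuginone liver 2 it was 0.07 (SE 0.33, edgeR adjusted p 0.902). Most of the Arntl difference in liver thus came from 1 library.

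Npas2, which can stand in for CLOCK as the partner of BMAL1, was near the limit of detection in liver. Its vehicle values were 0.356, 1.00, 0.513, 0.373 and 0.295 CPM, where 3 counts correspond to 0.113 CPM over the unscaled library size of vehicle liver 1. With halofuginone it was at 0.248, 3.50, 0.930, 0.154 and 0.112 CPM. The same liver as for Arntl was the highest, and 3 of the other 4 lay under the lowest vehicle liver. These 3 values were close to the floor, and that of halofuginone liver 5 was at or under 3 counts. The main edgeR fit of the 10 livers did not test it, because too few libraries reached the filter. DESeq2, edgeR without the filter and 1 fit of all groups tested all 10 members, Npas2 among them, and called 0.

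Clock had the steadiest level of the activators in liver. It was at 47.2, 31.1, 39.6, 26.4 and 34.7 CPM with vehicle and at 42.1, 49.0, 46.9, 25.1 and 31.3 CPM with halofuginone. This gave a log2 difference of 0.12 (SE 0.20, edgeR adjusted p 0.693). The 2 arms covered nearly the same range.

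Of the repressors, Per2 had the smallest p of the members. It was at 29.2, 31.7, 31.8, 38.6 and 32.6 CPM in vehicle livers and at 23.4, 15.2, 18.3, 30.0 and 30.5 CPM with halofuginone. Livers 1, 2 and 3 of the halofuginone arm lay below the vehicle range and livers 4 and 5 within it. The log2 fold change was −0.48 (SE 0.18, unadjusted p 0.0217, edgeR adjusted p 0.0738), which missed the threshold. The value was −0.37 without halofuginone liver 2 (edgeR adjusted p 0.109) and −0.50 without halofuginone liver 1 (edgeR adjusted p 0.0610).

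Per1, which is also an immediate target of glucocorticoid and cAMP signals, was at 17.6, 23.4, 23.1, 19.3 and 22.1 CPM with vehicle. With halofuginone it was at 16.1, 11.9, 18.6, 28.2 and 26.2 CPM. The halofuginone livers lay on both sides of the vehicle range, with 2 above and 2 below. On the log2 scale the difference was −0.06 (SE 0.21, edgeR adjusted p 0.849), and its sign turned without halofuginone liver 2 (0.07), with library size as the only scaling (0.09) and with deposited FPKM (0.08 to 0.09).

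Per3 was at 10.7, 15.7, 8.58, 11.4 and 10.8 CPM with vehicle and at 11.6, 1.94, 11.1, 23.6 and 26.5 CPM with halofuginone. Liver 2 was the lowest of all 10 livers, and livers 4 and 5 were the highest. This gave a log2 difference of 0.39 (SE 0.48, edgeR adjusted p 0.582) and without halofuginone liver 2 it was 0.66 (SE 0.27, edgeR adjusted p 0.116).

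Cry1, the late repressor of the loop, was at 13, 10.8, 8.67, 8.33 and 10.6 CPM with vehicle and at 10.2, 10.8, 4.29, 5.36 and 7.48 CPM with halofuginone. Livers 3, 4 and 5 of the halofuginone arm lay below the vehicle range. The log2 fold change was −0.43 (SE 0.24, edgeR adjusted p 0.208). It was −0.60 without halofuginone liver 2 (edgeR adjusted p 0.107) and −0.58 without halofuginone liver 1 (edgeR adjusted p 0.0754). Cry1 was one of the members in which halofuginone liver 2 did not stand apart.

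Of the receptors that repress Arntl, Nr1d1 was at 54.9, 69.0, 86.5, 51.6 and 53.3 CPM with vehicle. With halofuginone it was at 64.9, 69.7, 145, 128 and 74.3 CPM. Livers 3 and 4 lay above the vehicle range and the other 3 within it. On the log2 scale the difference was 0.61 (SE 0.25, unadjusted p 0.0297, edgeR adjusted p 0.0902). Without halofuginone liver 1 it was 0.70 (SE 0.24, edgeR adjusted p 0.0360), which passed the threshold in a fit where 42.8% of all genes did. With library size as the only scaling it was 0.79 and also passed (edgeR adjusted p 0.0375), where 3627 of 12311 genes did.

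Nr1d2, its paralog, was at 70.0, 83.0, 82.5, 62.5 and 67.0 CPM with vehicle and at 97.0, 47.9, 83.2, 86.9 and 95.0 CPM with halofuginone. Liver 2 lay below the vehicle range and the other 4 above it. This gave a log2 difference of 0.17 (SE 0.18, edgeR adjusted p 0.507) and 0.30 without that liver (SE 0.11, edgeR adjusted p 0.0900).

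Dbp, a transcription factor of the PAR bZIP family that passes the rhythm on to metabolic genes, was at 34.1, 76.2, 45.8, 67.6 and 52.8 CPM with vehicle. With halofuginone it was at 69.9, 9.02, 88.8, 103 and 97.6 CPM. Liver 2 was the lowest of the 10 livers, liver 1 lay within the vehicle range and livers 3, 4 and 5 above it. The log2 fold change was 0.41 (SE 0.47, edgeR adjusted p 0.547), and without liver 2 it was 0.69 (SE 0.21, edgeR adjusted p 0.0502).

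Leaving out halofuginone liver 2 thus left 0 of the 9 members called, where 15.3% of all genes were. At an unadjusted p under 0.05 there were then 6 of the 9, against 34.6% of all genes: Per2 and Cry1 with negative fold changes, and Per3, Nr1d1, Nr1d2 and Dbp with positive ones. That liver was singled out by these same clock values, so the share of the members without it is a description and no test. Leaving out halofuginone liver 1 left 1 of 10 called, Nr1d1. At an unadjusted p under 0.05 there were 3 of 10, against 50.5% of all genes.

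**Figure D2:**
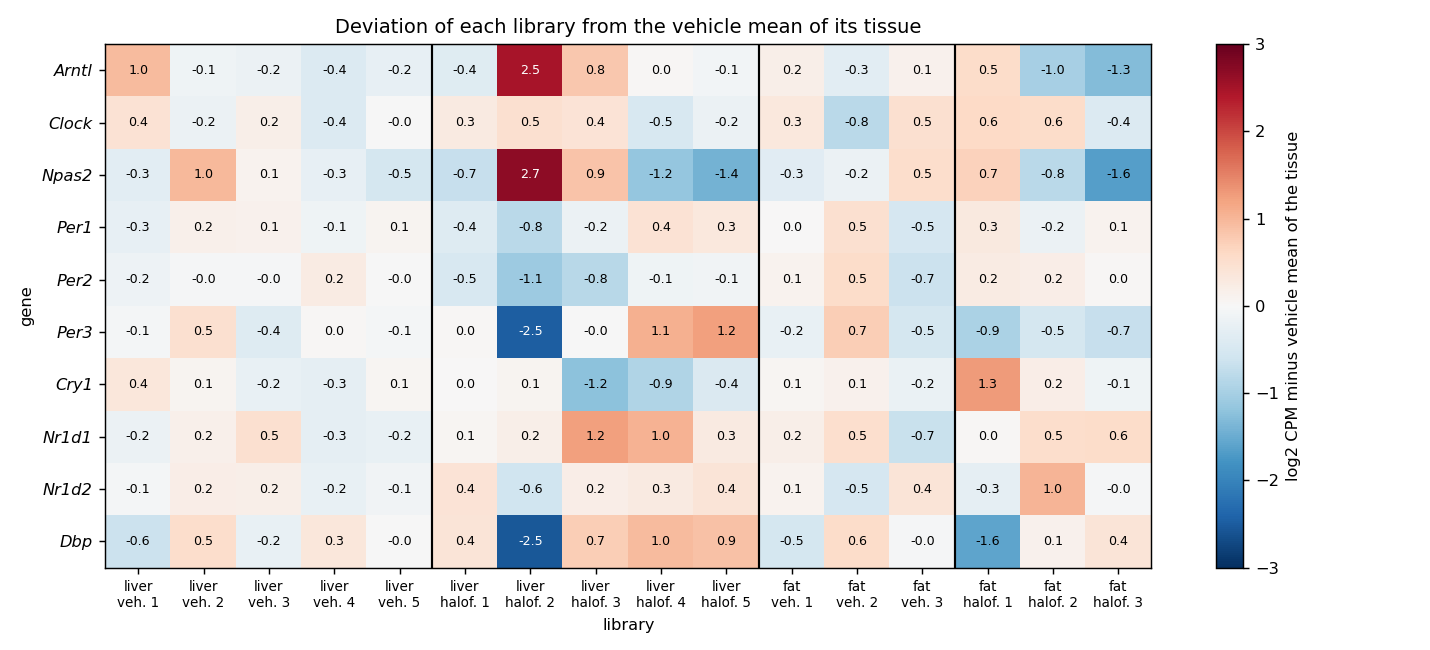
Deviation of each library (columns) from the vehicle mean of its tissue for the 10 clock genes (rows), as log2 of CPM plus 0.1, printed in each cell and coloured from blue (lower) to red (higher). Liver halofuginone replicate 2 holds the largest deviations of the liver columns, up for Arntl (2.5) and Npas2 (2.7) and down for Per3 and Dbp (−2.5).

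The spread within arms was measured as the SD of log2 CPM. For Dbp it was 0.46 over the vehicle livers and 1.49 over the halofuginone livers, for Per3 0.31 and 1.49, and for Arntl 0.55 and 1.15. Over all genes tested the median SD was 0.19 with vehicle and 0.28 with halofuginone. The halofuginone SD of Dbp exceeded that of 99% of the genes tested and the SD of Arntl that of 97.7%. Over the vehicle livers these shares were already 90.5% for Dbp and 94.1% for Arntl. Without liver 2 the SD of Dbp was 0.25, near the median of all genes without that liver (0.27), and that of Arntl was 0.50. Without liver 2, 7 of the 9 members had an SD above that median, from 0.35 for Per2 to 0.66 for Per3, and Dbp and Nr1d2 (0.10) had one below it.

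Vehicle liver 1 had the highest Arntl (7.60 CPM) and the lowest Dbp (34.1 CPM) of its arm. The difference log2 Arntl minus log2 Dbp was −2.15 in vehicle liver 1 and between −4.51 and −3.69 in vehicle livers 2 to 5. With halofuginone it was 1.29 in liver 2 and between −4.69 and −3.68 in the other 4. High Arntl did not go with low Dbp in every liver: in halofuginone liver 3 both were above the vehicle mean of log2 values, Arntl by 0.80 and Dbp by 0.74.

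**Figure D3:**
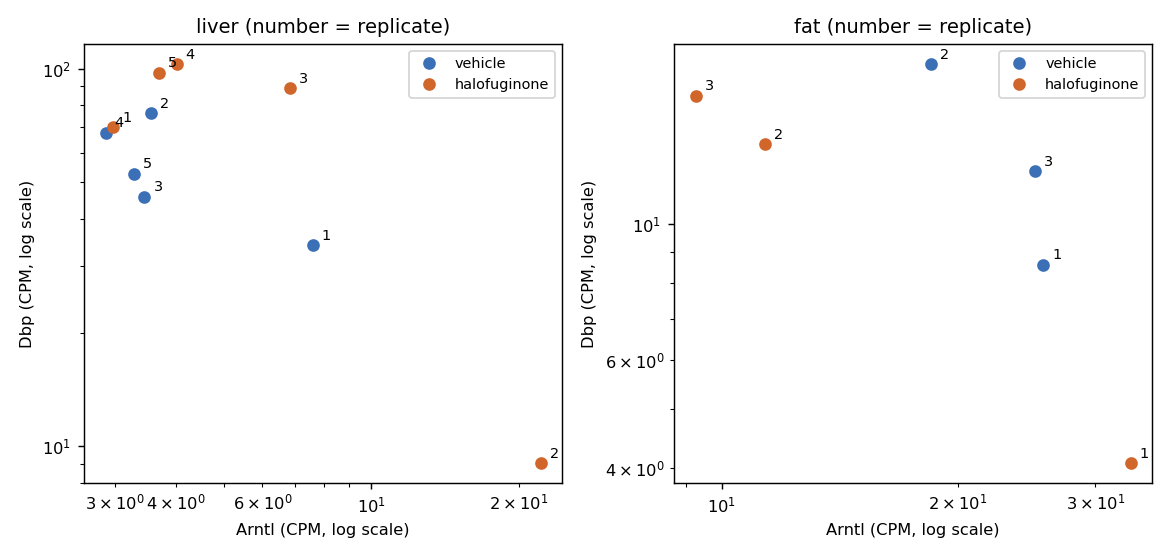
Dbp against Arntl in each library (CPM, log scales), liver on the left and fat on the right, with vehicle in blue and halofuginone in orange and numbers giving the replicate. In each tissue the library with the highest Arntl has the lowest Dbp: halofuginone replicate 2 in liver (22.1 and 9.02 CPM) and halofuginone replicate 1 in fat (33.3 and 4.08 CPM).

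Likeness of pattern was measured as the root mean square difference of centred log2 CPM over the 10 livers, among 8816 genes. Among the members Per3 was nearest to Dbp (0.355), and it was also the nearest of all 8816 genes, where the median gene was at 1.01. Arntl was nearest to the mirror image of Dbp among the members (0.583). Of all genes, among the 5 nearest to Arntl were Acpp (0.312), Serpina3n (0.329), Atp11a (0.347) and Itih4 (0.373), with a median of 0.878. Nearest to its mirror image were Hcn3 (0.301), Wee1 (0.310), Gys2 (0.324), Abca8a (0.380) and Tef (0.382). Wee1, a cell cycle kinase, Gys2, the liver glycogen synthase, and Tef, a PAR bZIP factor, were among the listed clock outputs and partners.

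After Per3, the genes nearest to Dbp were Aqp4 (0.437), Gys2 (0.543), Rbp4 (0.548) and Mcm10 (0.558). Nearest to its mirror image were Dnajc12 (0.446), Prg4 (0.464), Serpina3m (0.519), Socs3 (0.539) and Serpina3n (0.546). Serpina3n, an acute phase protease inhibitor, was at 4585 CPM in halofuginone liver 2 and between 530 and 1356 in the other 9 livers. Socs3, an inhibitor of cytokine signalling, was at 60.8 CPM there and between 4.87 and 25.9 elsewhere. The part of that state of liver 2 in the clock values was not tested. These likenesses rest on that liver: without it Per3 was not among the 5 genes nearest to Dbp, which were Gtpbp3, Myh10, Nup133, B3gnt2 and Cnppd1 (0.197 to 0.218), and of the 5 nearest to Arntl only Acpp (0.258) was shared.

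The other clock components were read from fixed lists, whose choice is described with the processing. Of 12 partners (paralogs, ROR receptors, PAR bZIP factors and related repressors), 10 were tested in liver, and 1 was called higher and 0 lower, where 12.7% of all genes were called higher and 10.5% lower. The median log2 fold change of the 10 was −0.04. The called gene was Rora, a receptor that activates Arntl through the RORE. It was at 48.2, 40.9, 46.1, 33.4 and 42.4 CPM with vehicle and at 60.4, 86.6, 110, 75.7 and 116 CPM with halofuginone. Every halofuginone liver lay above every vehicle liver, with liver 1 the nearest. Rora rose by 1.09 on the log2 scale (SE 0.18, edgeR adjusted p 0.00483) and was called with each library left out in turn (0.98 to 1.18) and in all 8 other analyses (0.99 to 1.26). Its paralog Rorb was listed at 0 counts in all 10 livers.

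Nfil3, which competes with DBP at the D-box, was at 48.5 CPM in halofuginone liver 2 and between 15 and 27.4 in the other 9 livers, and its log2 fold change was 0.40 (SE 0.26, edgeR adjusted p 0.288). Tef was at 41.6 CPM in that liver and between 111 and 172 elsewhere (−0.23, SE 0.30, edgeR adjusted p 0.60). Without halofuginone liver 1 the partners called were 2 higher, Rora and Timeless, and 2 lower, among them Hlf, in a fit where 42.8% of all genes were called.

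**Figure D4:**
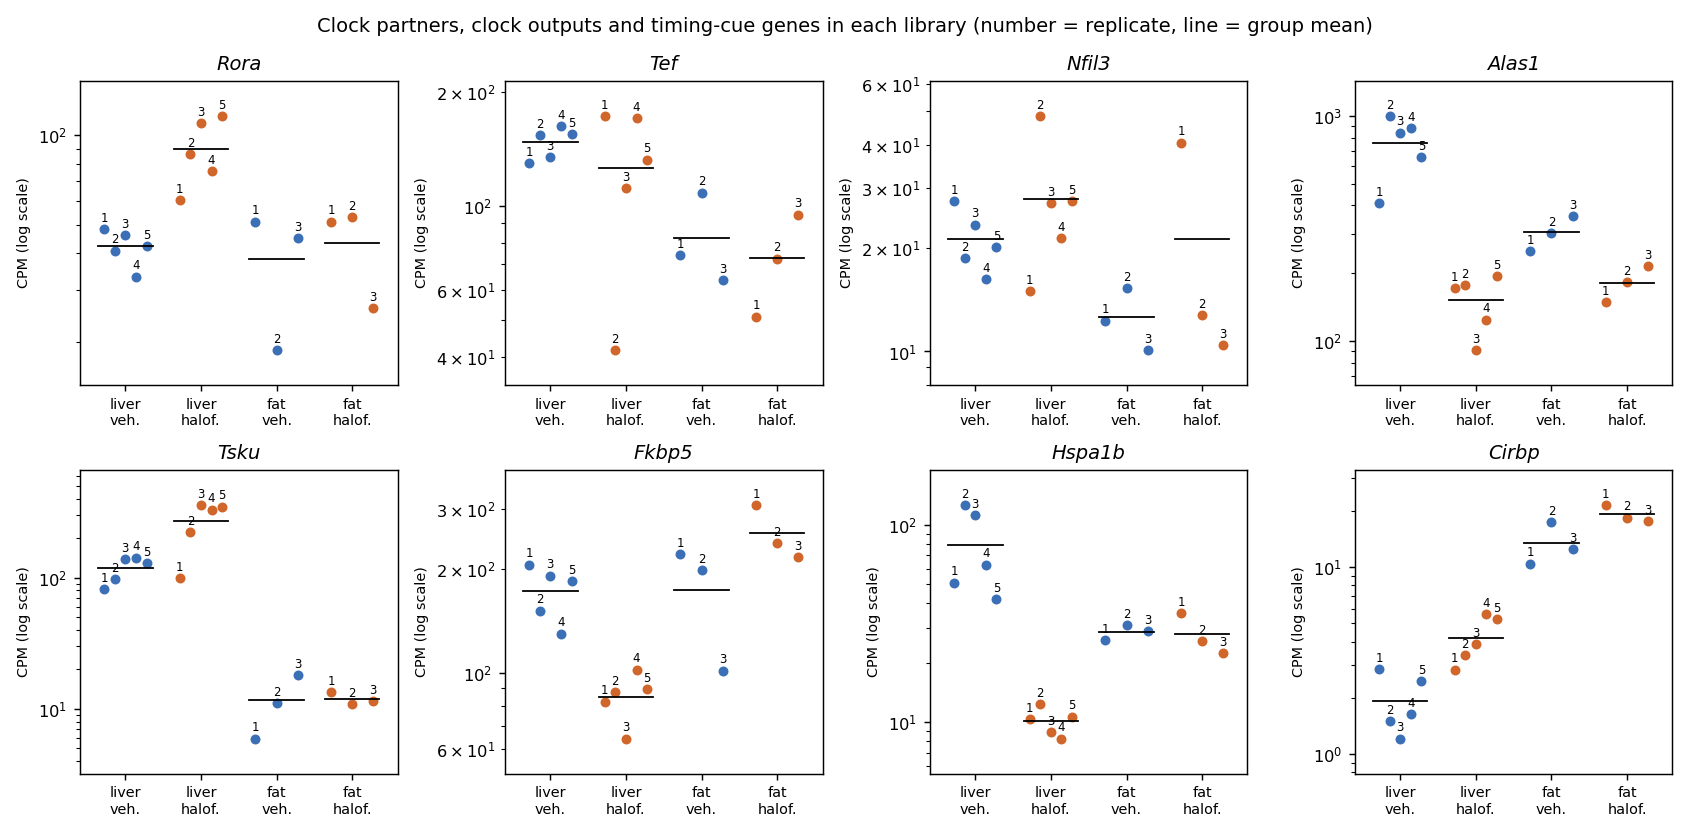
CPM (log scale, scaled within each tissue) of 8 genes from the lists of clock partners, clock outputs and timing cues, by library. Vehicle is blue, halofuginone orange, numbers are replicates and lines group means. Rora lies higher in all 5 halofuginone livers than in any vehicle liver, and Alas1, Fkbp5 and Hspa1b lie lower in all 5. Tef and Nfil3 show halofuginone liver 2 apart from the rest.

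Of 14 genes that modify clock proteins (casein kinases, F-box proteins, deubiquitinase, AMPK subunits, deacetylases and their corepressor), all 14 were tested in liver, 1 was called higher and 0 lower, against 12.7% higher and 10.5% lower over all genes, and the median log2 fold change was 0.12. The called gene was Fbxw11, an F-box protein that marks PER proteins for degradation, at 33.4 to 39.3 CPM with vehicle (median 35.3) and at 35.6, 51.0, 48.7, 49.8 and 50.6 CPM with halofuginone. Its log2 fold change was 0.38 (SE 0.11, edgeR adjusted p 0.0277), and it stayed called in 3 of the 10 fits that each left out 1 library, with adjusted p up to 0.0683. The libraries whose omission ended the call were vehicle livers 1, 2 and 5 and halofuginone livers 2, 3, 4 and 5. Usp2, a deubiquitinase under strong clock control, was at 1.27 CPM in halofuginone liver 2 and between 8.62 and 29.9 elsewhere, and its log2 difference was −0.60 (SE 0.55, edgeR adjusted p 0.442).

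Of 20 known output genes of the liver clock, 19 were tested in liver, 3 were called higher and 4 lower, against 12.7% higher and 10.5% lower over all genes, and the median log2 fold change was −0.18 (all genes 0.02). Without halofuginone liver 1 the counts were 4 higher and 7 lower, and without halofuginone liver 2 they were 1 higher and 2 lower, while the share of all genes called went from 23.2% to 42.8% and to 15.3%. Alas1, the rate-limiting enzyme of heme synthesis, had the smallest p of the list. It was at 408, 996, 841, 880 and 653 CPM with vehicle and at 172, 177, 91.3, 124 and 195 CPM with halofuginone, with no overlap. Alas1 fell by 2.31 on the log2 scale (SE 0.27, edgeR adjusted p 0.00147), and it was called with each library left out. Heme is the ligand of the REV-ERB receptors, as background.

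Tsku, a secreted liver protein, rose by 1.2 on the log2 scale (SE 0.31, edgeR adjusted p 0.0213), from 82.2 to 142 CPM with vehicle to 98.7, 223, 359, 330 and 348 CPM with halofuginone. It was not called without vehicle liver 2, halofuginone liver 3 or halofuginone liver 5 (adjusted p up to 0.0554). Cyp7a1, the rate-limiting enzyme of bile acid synthesis, fell by 2.30 (SE 0.67, edgeR adjusted p 0.0321), and it was at 32.3 to 144 CPM with vehicle (median 107) and at 61.3, 3.02, 11.1, 9.26 and 17.8 CPM with halofuginone. Nampt, the NAD salvage enzyme, fell by 0.84 (SE 0.23, edgeR adjusted p 0.0278). Elovl3, a fatty acid elongase, fell by 1.07 (SE 0.30, edgeR adjusted p 0.0292). In the 10 fits that each left out 1 library, Cyp7a1 stayed called in 3, Nampt in 2 and Elovl3 in 2, with adjusted p up to 0.0804, 0.0722 and 0.0718. The fits that kept a call were those without halofuginone liver 1 for all 3 genes, without vehicle liver 3 and halofuginone liver 2 for Cyp7a1, without vehicle liver 1 for Nampt and without vehicle liver 4 for Elovl3. Nampt was at 76.3 to 102 CPM with vehicle and at 89.5, 34.4, 36.5, 45.5 and 49.0 CPM with halofuginone. Elovl3 was at 42.4 to 98.9 CPM with vehicle and at 61.8, 19.8, 45.4, 29.8 and 27.8 CPM with halofuginone. Halofuginone liver 1 lay inside the vehicle range for all 4 of these genes, Tsku, Cyp7a1, Nampt and Elovl3.

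Signals that set or read out the phase of a peripheral clock (glucocorticoid targets, temperature-responsive RNA-binding proteins and heat shock genes, metallothioneins, immediate early genes, fasting genes) were a further list of 20. All 20 were tested in liver, 5 were called higher and 6 lower, against 12.7% higher and 10.5% lower over all genes. Leaving out 1 library at a time gave 10 to 12 calls in this list and 1275 to 5312 over all genes. The median log2 fold change of the list was 0.04. The 5 with the smallest p were Hspa1b, Dnajb1, Fkbp5, Hspa1a and Tat. Hspa1b, a heat shock chaperone, was at 51.0, 126, 113, 62.9 and 42.1 CPM with vehicle and at 10.4, 12.3, 8.87, 8.26 and 10.7 CPM with halofuginone. It fell by 2.96 (SE 0.31, edgeR adjusted p 0.000602), and its near-identical paralog Hspa1a fell by 3.26 (SE 0.51, edgeR adjusted p 0.00418). How reads were divided between these 2 genes is uncertain. Dnajb1, their cochaperone, fell by 1.03 (SE 0.15, edgeR adjusted p 0.00374).

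Fkbp5, a glucocorticoid target, fell by 1.02 (SE 0.16, edgeR adjusted p 0.00377), from 130 to 207 CPM with vehicle to 64.2 to 102 CPM with halofuginone. Tat, an amino acid catabolic enzyme that is also a glucocorticoid target, rose by 1.66 (SE 0.32, edgeR adjusted p 0.00827), at 471 to 1018 CPM with vehicle and at 900, 1975, 2347, 2549 and 2722 CPM with halofuginone. These 2 glucocorticoid targets moved in opposite directions. All 5 genes were called with each library left out.

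Markers of hepatocytes and of other cells were read in the same livers, where 12.7% of all genes tested were called higher and 10.5% lower. The summed hepatocyte markers were at 119090 to 137077 CPM with vehicle and at 51878 to 112839 with halofuginone. Of these 8, 1 was called lower (Ttr) and none was at the floor. Their log2 fold changes were negative for 6 and positive for 2, Serpina1c (0.02) and Fgb (0.57). The 8 macrophage markers summed to 293 to 392 CPM with vehicle and to 270 to 481 with halofuginone, with 0 of 8 called. The 7 fibroblast and stellate markers were at 255 to 345 CPM with vehicle and 171 to 280 with halofuginone, with 4 of 7 called lower (Col1a1, Col3a1, Pdgfrb and Reln). Pdgfrb and Reln were not called with library size alone, the replicate block or FPKM, nor was Reln in 1 fit of all groups. The 8 adipocyte markers summed to 69.7 to 146 CPM in vehicle livers and to 23.5 to 73.6 CPM with halofuginone. Of these 8, Adipoq, Lep, Plin1 and Retn were at or under 3 counts in every liver, and 3 of the other 4 were called lower with halofuginone. Those 3 were Fabp4 (14.1 to 31.8 CPM with vehicle, 4.85 to 8.34 with halofuginone), Cfd (8.02 to 30.5 CPM with vehicle, at or under 3 counts with halofuginone) and Lipe (16.1 to 21.2 CPM with vehicle, 12.9 to 13.9 with halofuginone). Lipe was not called with library size alone, FPKM or 1 fit of all groups. In bulk samples, fewer cells of a type and less RNA per cell cannot be told apart, and the part of these markers in the clock values was not tested.

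In fat, too, none of the members passed the test. All 10 were tested, and edgeR called 0 of 10, as it called 0% of the 14030 genes tested. At an unadjusted p under 0.05 there were 0 of 10, against 13.4% of all genes. DESeq2 called 0 of the 10 members and 655 of all genes. The arms overlapped in all 10 members and did not overlap in 20.6% of the genes tested. The median log2 fold change of the 10 was 0.05, and that of all genes was 0.01.

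Arntl was at 25.7, 18.5 and 25.1 CPM in vehicle fat 1 to 3 and at 33.3, 11.3 and 9.26 CPM with halofuginone. Halofuginone fat 1 lay above and halofuginone fat 2 and 3 below every vehicle sample. On the log2 scale the difference was −0.36 (SE 0.48, edgeR adjusted p 0.799), and without halofuginone fat 1 it was −1.16 (SE 0.24, unadjusted p 0.00332, edgeR adjusted p 0.353). Npas2 was at 8.45, 9.49 and 15.4 CPM with vehicle and at 17.3, 6.13 and 3.37 CPM with halofuginone, with the same order of the halofuginone samples (log2 fold change −0.32, SE 0.59, edgeR adjusted p 0.859). Among the members Npas2 was nearest to Arntl over the 6 fat libraries (root mean square difference 0.318).

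Clock was at 75.0, 34.0 and 83.6 CPM in vehicle fat and at 90.8, 88.0 and 45.3 CPM with halofuginone (log2 fold change 0.22, SE 0.40, edgeR adjusted p 0.856). One sample of each arm was low for Clock, vehicle fat 2 and halofuginone fat 3. Per1 was at 54.1, 75.2 and 37.6 CPM with vehicle and at 65.6, 47.0 and 57.9 CPM with halofuginone, all 3 within the vehicle range (0.03, SE 0.27). Per2 was at 21.8, 29.7 and 12.9 CPM with vehicle and at 24.0, 23.1 and 20.8 CPM with halofuginone, again all within the vehicle range (0.08, SE 0.30).

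Per3 had the smallest p in fat. It was at 13.1, 25.4 and 10.5 CPM with vehicle and at 7.81, 10.6 and 9.31 CPM with halofuginone, and 2 of the 3 halofuginone samples lay below the vehicle range. This gave a log2 difference of −0.82 (SE 0.35, unadjusted p 0.0516, edgeR adjusted p 0.377). Cry1 was at 14.5, 15.1 and 12.1 CPM with vehicle and at 33.9, 16 and 12.6 CPM with halofuginone. Its log2 difference, 0.58 (SE 0.37, edgeR adjusted p 0.553), was 0.05 without halofuginone fat 1.

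Nr1d1 was at 94.2, 120 and 52.4 CPM in vehicle fat and at 85.5, 121 and 123 CPM with halofuginone (log2 fold change 0.31, SE 0.32, edgeR adjusted p 0.732). Nr1d2 was at 55.5, 36.3 and 67.5 CPM and at 42.7, 105 and 50.4 CPM (0.32, SE 0.39, edgeR adjusted p 0.781). Dbp was at 8.57, 18.2 and 12.2 CPM with vehicle and at 4.08, 13.5 and 16.1 CPM with halofuginone (−0.21, SE 0.51, edgeR adjusted p 0.900). Halofuginone fat 1, the highest for Arntl, Npas2 and Cry1, was the lowest for Dbp, and it also had the highest Nfil3 (40.6 CPM, against 10.1 to 15.3 in the other 5).

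Of the listed clock partners, modifiers, outputs and cues, 11, 14, 16 and 17 were tested in fat and 0 were called. At an unadjusted p under 0.05 there were 1, 1, 7 and 2 in that order, against 13.4% of all genes. Macrophage markers in fat summed to 2873 to 4384 CPM with vehicle and to 1407 to 1546 with halofuginone. Of the 8, 7 were tested and 0 called, all 7 with an unadjusted p under 0.05 (13.4% of all genes). Clec4f, a marker of liver macrophages, was at or under 3 counts in all 6 fat samples. Skeletal muscle markers summed to 97.9 to 183 CPM with vehicle and 61.4 to 70.6 with halofuginone, with 0 of 6 called. The 6 epididymis markers summed to 63.7 CPM in vehicle fat 3 and 12.7 in halofuginone fat 1 and to at most 0.558 in the other 4. In vehicle fat 5 of the 6 (Lcn5, Lcn8, Lcn9, Defb20 and Spint4) were at or under 3 counts in every sample, which leaves Crisp1. With halofuginone Lcn5 and Spint4 were at or under 3 counts in every sample. Only 1 of the 6 had enough counts to be tested, and 0 were called. The part of these cells in the clock values was not tested.

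The drug effect in fat was compared with that in liver in 1 fit of all 16 libraries. It differed at an adjusted p under 0.05 for 0 of the 10 members and for 0.949% of the 14853 genes tested (0.417% higher and 0.532% lower in fat). At an unadjusted p under 0.05 there was 1 member, Cry1, against 15.7% of all genes. For Cry1 the effect in fat minus that in liver was 1.00 on the log2 scale (SE 0.46, unadjusted p 0.0444, edgeR adjusted p 0.303). It ran from 0.44 (without halofuginone fat 1) to 1.25 (without halofuginone fat 3) when 1 library was left out. For Arntl it was −1.32 (SE 0.84, edgeR adjusted p 0.481), and without halofuginone liver 2 it was −0.45. In the lists of clock partners, modifiers, outputs and cues, the difference was called for 4 genes, named after their values had been seen. They were Gys2 (−3.42, SE 0.70, edgeR adjusted p 0.0347), Fkbp5 (1.55, SE 0.34, edgeR adjusted p 0.0434), Hspa1a (3.19, SE 0.65, edgeR adjusted p 0.0347) and Hspa1b (2.91, SE 0.44, edgeR adjusted p 0.00722). With the replicate number as a block Hspa1b was called and the other 3 were not. With FPKM, Hspa1a was not called at either pseudocount (down to 0.95), and Gys2 was not called at a pseudocount of 1 (−1.65).

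**Figure D5:**
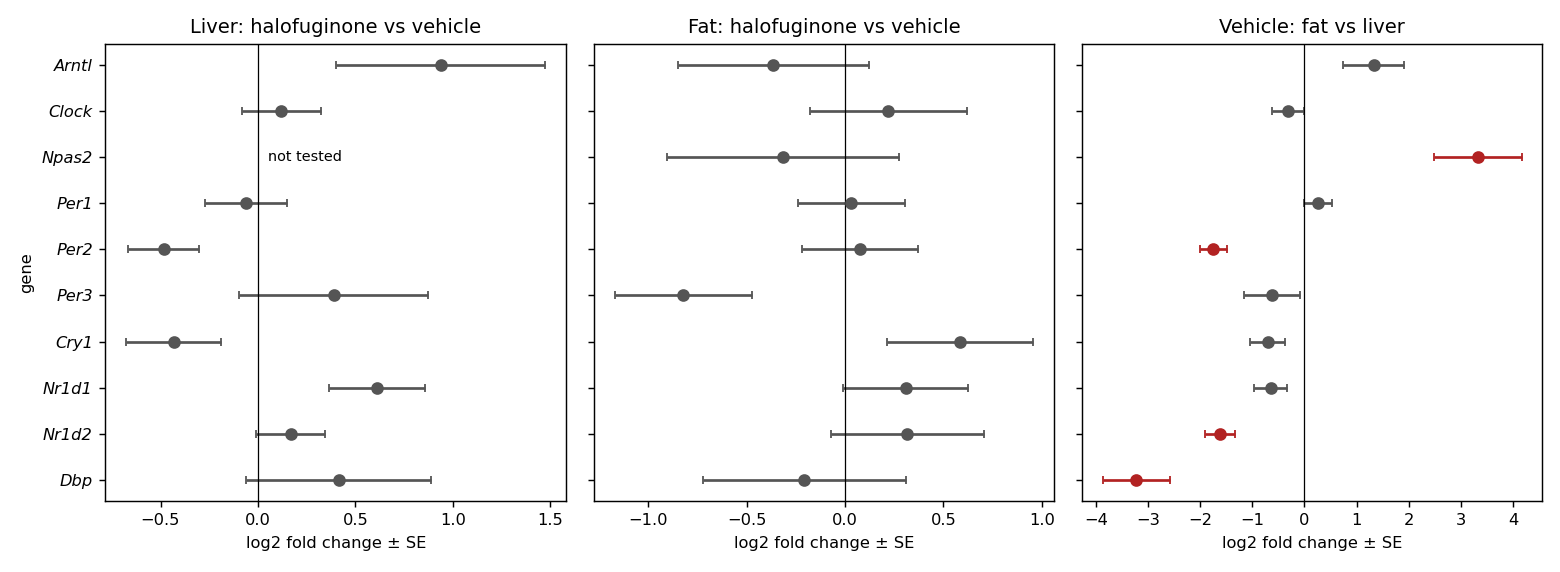
Log2 fold changes with standard errors (edgeR) of the 10 clock genes for halofuginone against vehicle in liver and in fat, and for vehicle fat against vehicle liver. Red points passed an adjusted p under 0.05, which occurred only in the tissue comparison (Npas2, Per2, Nr1d2 and Dbp). In that panel Clock, Per3, Cry1 and Nr1d1 turn positive and Nr1d2 loses its call under library size alone or FPKM.

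The vehicle samples show how the clock genes differ between the tissues without drug. In the joint fit 4 of the 10 members were called, 1 higher and 3 lower in fat than in liver, where 72.3% of all genes were called (40.9% higher, 31.5% lower). At an unadjusted p under 0.05 there were 6 of 10, with Arntl and Cry1 added, against 74.2% of all genes. Npas2 was higher in fat by 3.33 on the log2 scale (SE 0.83, edgeR adjusted p 0.00204). Dbp was lower by −3.23 (SE 0.64, edgeR adjusted p 0.000302), Per2 by −1.75 (SE 0.26, edgeR adjusted p 2.08e-05) and Nr1d2 by −1.61 (SE 0.29, edgeR adjusted p 0.000109). Arntl, at 1.33 (SE 0.59, edgeR adjusted p 0.0522), was next to the threshold, and without halofuginone liver 2, which enters through the shared spread, it passed (edgeR adjusted p 0.00882), as it did in 6 of the 16 fits that each left out 1 library.

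These tissue values depend on how the libraries are scaled. With library size alone the median of all genes moved by 1.19 on the log2 scale, and with FPKM by 0.75 to 0.92. Npas2 stayed higher in fat and Dbp and Per2 stayed lower in all 7 other analyses, with ranges of 2.21 to 4.52, −3.31 to −1.96 and −1.82 to −0.50. Nr1d2 stayed negative (−0.45 to −0.42) but was no longer called with library size alone or FPKM. Under the same scalings Clock, Per3, Cry1 and Nr1d1 changed sign, and Arntl (1.94 to 2.52), Per1 (0.95 to 1.46) and Clock (0.70 to 0.88) were called higher in fat. Most genes were called higher there too: 10883 of 14853 with library size alone, and 8271 and 8272 of 11786 with FPKM.

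Levels of different genes were compared as FPKM, that is, per length of transcript. In vehicle liver the order was Dbp (31.5 ± 9.59 FPKM, SD, n = 5), Nr1d1 (21.9 ± 4.61), Nr1d2 (14.9 ± 1.56), Per1 (7.23 ± 1.63), Per2 (5.34 ± 0.725), Clock (4.20 ± 0.885), Cry1 (3.21 ± 0.568), Per3 (1.83 ± 0.395), Arntl (1.39 ± 0.691) and Npas2 (0.176 ± 0.0924). The ranges of neighbours were apart between Nr1d1 and Nr1d2, Nr1d2 and Per1, Cry1 and Per3, and Arntl and Npas2, and all other neighbours overlapped. In vehicle fat the order was Nr1d1 (32.2 ± 13.3 FPKM, SD, n = 3), Per1 (15.3 ± 5.71), Nr1d2 (11 ± 2.90), Arntl (7.95 ± 1.07), Clock (7.79 ± 3.10), Dbp (7.37 ± 2.88), Npas2 (4.80 ± 2.65), Cry1 (4.5 ± 0.674), Per2 (3.63 ± 1.54) and Per3 (2.72 ± 1.43). There all neighbours overlapped. Dbp thus had rank 1 in vehicle liver and rank 6 in vehicle fat, and Arntl rank 9 and rank 4, as a description of these orders.

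Among the 12 partners 11 were tested between the tissues, and 3 were called higher and 7 lower in fat with vehicle. Of all genes tested, 40.9% were called higher and 31.5% lower. Arntl2, the paralog of Arntl (2.59), Bhlhe41, a repressor that binds the E-box (2.41), and Timeless (0.62) were the higher ones. Hlf (−4.5) and Tef (−1.98), the relatives of Dbp, Ciart (−4.54), Bhlhe40 (−2.42), Nfil3 (−1.89) and Rora (−1.29) were among the lower ones, all as log2 fold changes from edgeR with adjusted p of 0.0399 or less. All 10 kept their direction in the other analyses that fitted them, while Rora and Nfil3 were not called with library size alone or FPKM and Timeless not with the replicate number as a block. Among the 14 modifiers, all tested, 2 were called higher and 4 lower in fat, against the same shares of all genes. The casein kinase gene Csnk1e (2.2) and the AMPK subunit gene Prkaa1 (1.12) were higher. Lower were Csnk2a1 (−0.98), Fbxl21 (−1.57), Usp2 (−3.05) and the AMPK subunit gene Prkaa2 (−4.64). Of these, Csnk2a1 changed sign and Fbxl21 lost its call with library size alone, and Csnk2a1 also changed sign with FPKM.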

How the data were processed

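Libraries were made with a NEBNext Ultra kit from Trizol RNA after oligo(dT) enrichment, per the labels' protocols, and whether counting used strand is not given in the sources used here. The submitters' processing notes name fastp 0.18.0, Bowtie2 2.2.8, HISAT2, StringTie 1.3.1, RSEM and the mm39 build, without roles. The authors deposited 1 table per tissue with whole-number counts and FPKM per library, per the file headers. Because FPKM was above 0 for some genes with no counts, the deposited counts may be rounded estimates. Symbols were matched for 22267 of 22322 identifiers, and 0 columns were left unmapped. Promoters came from a RefSeq table of another build (GRCm38.p6), so no coordinate of the authors' build is given. No 2 libraries of a group agreed within sampling noise (lowest chi-square per degree of freedom 31.2).

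Drug effects were fitted separately for liver and fat in edgeR 4.0.16 under R 4.3.3 (filterByExpr, TMM scaling, glmQLFit, then glmQLFTest, two-sided, Benjamini-Hochberg over all genes tested). The contrast of drug effects and the tissue comparison came from 1 fit of all groups. SE is the absolute log2 fold change over the square root of F. The code was tested on simulated data. A count of 0 allows up to 3 counts, and such floors cover counting error only. Alternatives were DESeq2 1.42.0, its size factors, library size alone, no filter, the replicate number as a block, limma 3.58.1 on log2 FPKM (pseudocount 1 or 0.1, mean of at least 1 FPKM), 1 fit of all groups, and leaving out each library. List counts and likenesses without single livers were added after seeing the data. The members, lists and tests were chosen with earlier results of these data known. Named genes were all members, the called partners and modifiers, at most 5 outputs and 5 cues by smallest p in liver, and the 5 nearest genes per likeness (mean of at least 5 CPM, log2 CPM with a prior count of 2). Rorb, Nfil3, Tef, Usp2, Asns and Trib3 were named after their values had been seen. Some genes that these rules select are not reported here.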

Additional observations from a re-analysis of the deposited data

Results flagged for a closer look

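In 20 sets of 5 liver values (10 genes in 2 arms), 4 held a value set apart from the others by more than 0.71 of the whole range. At 1 in 20, about 1 would be expected if the sets were independent. They share libraries and the gaps were taken on linear CPM, so the count of 4 is a description and no test. Arntl in vehicle liver 1 was the highest of its arm at 7.60 CPM, with the next at 3.56 CPM and a gap of 0.856 of the range. The other 3 were all in halofuginone liver 2. There Arntl was the highest at 22.1 CPM (next 6.83, gap 0.799), Npas2 the highest at 3.50 CPM (next 0.930, gap 0.759) and Nr1d2 the lowest at 47.9 CPM (next 83.2, gap 0.720).

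For Per2 the halofuginone effect in fat minus that in liver was 0.53 on the log2 scale. On log2 CPM, all 5 halofuginone livers lay below the mean of the vehicle livers and all 3 halofuginone fat samples above the mean of the vehicle fat samples, the nearest by 0.04. On linear CPM halofuginone fat 3 (20.8 CPM) lay below the mean of its vehicle samples. The test of the difference itself did not pass the threshold.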

How the results depend on the processing

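The number of liver members called was 0 in every alternative except library size alone. That scaling gave 1 (Nr1d1), where 3627 of 12311 genes were called. Leaving out each library in turn gave 0 to 1, where 1275 to 5312 of all genes were called. The numbers called in fat and in the contrast of the tissues were 0 throughout. Between vehicle fat and vehicle liver 4 to 6 members were called, where the main fit called 72.3% of all genes. With the replicate number as a block, 0 of 9 liver members, 0 of 10 fat members, 0 in the contrast and 6 between tissues were called. Over all genes the block called 1901 of 12311 in liver, 0 of 14030 in fat, 20 of 14853 in the contrast and 10098 of 14853 between tissues. Same-numbered arms did not deviate together (correlations from −0.156 to 0.0566 in liver and from −0.570 to 0.111 in fat), and 1 of 8 libraries correlated best with its own number.

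Signs turned in these cases. Per1 in liver was 0.087 with library size alone and 0.080 and 0.087 with FPKM, and in fat it was −0.094 and −0.098 with FPKM. In the contrast of drug effects Clock was −0.00098 and Per1 −0.00079 with library size alone, and Per1 was −0.17 and −0.18 with FPKM. Between tissues, library size alone and FPKM with a pseudocount of 1 or 0.1 gave 0.88, 0.70 and 0.80 for Clock, 0.58, 0.34 and 0.46 for Per3, 0.49, 0.39 and 0.48 for Cry1 and 0.56, 0.47 and 0.48 for Nr1d1. The cause was not tested beyond the shift of the median of all genes that these scalings bring.

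Leaving out 1 library at a time, Per1 in liver ran from −0.23 to 0.068. In fat, Clock ran from −0.085 to 0.50, Npas2 from −1.22 to 0.11, Per1 from −0.18 to 0.31, Per2 from −0.18 to 0.38, Nr1d2 from −0.15 to 0.55 and Dbp from −0.55 to 0.19. In the contrast, Clock ran from −0.21 to 0.34, Npas2 from −2.27 to 0.097, Per1 from −0.16 to 0.37 and Nr1d2 from −0.34 to 0.36, and between tissues Per1 ran from −0.042 to 0.49.

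Over all genes, leaving out 1 liver gave 1275 (without halofuginone liver 3) to 5312 calls (without halofuginone liver 1) in place of 2850. Library size alone moved the median liver fold change by 0.16 and gave 2789 higher and 838 lower calls, and FPKM with a pseudocount of 1 gave 2086 and 780, in place of 1558 and 1292. In fat, DESeq2 gave 655 calls, 1 fit of all groups 334, FPKM with a pseudocount of 1 gave 13 and no filter 1, in place of 0. In the contrast, DESeq2 gave 686 calls, FPKM with a pseudocount of 1 gave 280 and the block 20, in place of 141, and leaving out 1 library gave 34 to 1053. Between tissues, 86.3% of calls were higher in fat with library size alone and 83.8% and 83.6% with FPKM, in place of 56.5%. Npas2 in liver is limited by depth in both arms, with 4 of the 5 halofuginone livers under 1 CPM and the vehicle livers at 0.295 to 1.00 CPM.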
